A study of Mus musculus with 7 samples.

Results

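The Reg genes encode small secreted C-type lectins of the gut and the pancreas, and 5 of them were examined here together with Retnlb, which encodes a resistin-like molecule and is not a lectin. The 6 members (Reg1, Reg3a, Reg3b, Reg3g, Reg4 and Retnlb) were selected by gene name from the 38293 genes in the table of counts. They were chosen in part from the data themselves, because Reg3b was the most abundant gene of 1 library, so the level of Reg3b in that library is a description. The values below that use all 7 libraries include it, and the diet comparison is also given without that library. RNA had been sequenced from scrapings of the ileum, the last part of the small intestine, of 7 male C57BL/6NRJ mice, 4 on the normal cystine diet (normal cys) and 3 on the low cystine diet (low cys). Scrapings took the epithelium and the connective tissue under it and left the muscle behind. Mice aged 8 weeks spent 1 week on the purified high-fat control diet (AIN93G, 40% of energy from fat) before 2 weeks on their diet. The diets contained 0.38% and 0.08% total cystine, the added cystine of the low cys diet having been replaced by alanine. Each library is named by its label, X17SI4, X32SI4, SI9 and X1SI4 for normal cys and X23SI4, X26SI4 and X10SI4 for low cys.

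Reg3b and Reg3g are among the best known antibacterial proteins of the small intestine. Reg3g binds peptidoglycan and kills Gram-positive bacteria, Reg3b also acts on Gram-negative bacteria, and together they keep bacteria away from the surface of the epithelium. Their transcription in enterocytes and Paneth cells is raised by bacterial signals and by the cytokine IL-22 from innate lymphoid cells and T cells, which acts through the transcription factor STAT3. Reg1 was first described in regenerating pancreatic islets, Reg4 is made by secretory cells of the gut, and Retnlb is made by goblet cells in response to type 2 cytokines and to bacteria, mainly in the colon.

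Of the 6 members, 4 lie in a cluster on chromosome 6 together with Reg2 and Reg3d (GRCm38, positions 78370885 to 78468872). Reg3b is at 78370885 to 78373466, Reg3a at 78380709 to 78383839 and Reg1 at 78425983 to 78428666, all on the plus strand. Reg3g lies at the other end of the cluster on the minus strand (78466269 to 78468872). Reg4 is on chromosome 3 (98222156 to 98236748) and Retnlb on chromosome 16 (48816856 to 48818891). The 250 bases upstream of the RefSeq start sites (GRCm38.p6) are printed for Reg3b and Reg3g, whose levels moved together between mice. They are also printed for Reg3a of the same cluster, whose level moved less. Capitals mark matches on either strand to the STAT motif TTCNNNGAA or to the TATA motif TATAAA, the only motifs searched, and no match overlapped another.
Reg3b, chr6:78370635-78370884, plus strand: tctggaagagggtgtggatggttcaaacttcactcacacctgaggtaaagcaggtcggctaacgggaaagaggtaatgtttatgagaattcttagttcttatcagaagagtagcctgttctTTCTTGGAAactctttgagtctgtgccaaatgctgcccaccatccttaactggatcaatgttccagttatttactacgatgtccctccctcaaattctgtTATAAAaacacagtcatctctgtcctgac
Reg3g, chr6:78468875-78469124, minus strand: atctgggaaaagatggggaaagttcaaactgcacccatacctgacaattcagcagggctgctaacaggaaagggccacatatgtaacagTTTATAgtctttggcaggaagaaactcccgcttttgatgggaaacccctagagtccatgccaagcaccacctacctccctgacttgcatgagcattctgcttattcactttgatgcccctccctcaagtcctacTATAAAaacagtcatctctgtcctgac
Reg3a, chr6:78380459-78380708, plus strand: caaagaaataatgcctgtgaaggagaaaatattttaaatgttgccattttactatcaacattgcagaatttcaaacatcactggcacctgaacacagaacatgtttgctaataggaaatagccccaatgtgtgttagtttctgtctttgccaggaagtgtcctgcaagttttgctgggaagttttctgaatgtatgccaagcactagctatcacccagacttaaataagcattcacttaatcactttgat

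The Reg3b and Reg3g promoters were identical at 173 of 250 bases (69.2%) in a global alignment. Reg3a was identical to Reg3g at 56.4% and to Reg3b at 46.4%, and Reg4, from another chromosome, was identical to Reg3b at 48.4%. The promoters of Reg3b and Reg3g each held TATAAA just before the start, at 29 to 24 bases upstream and at 27 to 22 bases upstream, and Reg1 held it at 30 to 25 bases. Among all 32851 promoters of the same length, 12.4% held this motif. The Reg3b promoter also held TTCTTGGAA, a match to the STAT motif, at 129 to 121 bases upstream. This motif was found in 7.02% of all promoters and in none of the other 4 members with a sequence. Reg3a and Reg4 held neither motif in this window.

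The 4 normal cys libraries held 19712355 to 22412703 counts and the 3 low cys libraries 14888760 to 21942518, and no pair of libraries was a duplicate. Counts were scaled with TMM factors to counts per 1000000 counts of the library (CPM), and 14869 genes with enough counts were tested with edgeR. Genes of the distal ileum were abundant in every library, for example Fabp6 (2848 to 7454 CPM), which carries bile acids in ileal enterocytes, and Slc51a (846 to 1158 CPM), a bile acid exporter. Of the markers of pancreatic acinar cells, which can bring Reg transcripts into intestinal samples, only Clps reached a level above 1 CPM (4.35 to 27.4 CPM), and the other 10, including the digestive enzymes, were at most 0.204 CPM in any library. Of the colon markers, Car4 was found at 58.1 to 176 CPM and the other 5 were at most 0.227 CPM. In Reg3b and Reg3g, 1 library of each diet, X17SI4 (normal cys) and X23SI4 (low cys), stood far above the others.

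Reg3b was the most highly expressed member. Its level was 18286 CPM in X17SI4, 1991 CPM in X32SI4, 1360 CPM in SI9 and 2040 CPM in X1SI4 on normal cys, and 18755 CPM in X23SI4, 2573 CPM in X26SI4 and 5793 CPM in X10SI4 on low cys. X17SI4 was thus 8.96-fold above the highest of the other normal cys libraries and X23SI4 3.24-fold above the highest of the other low cys libraries, while the 2 libraries differed from each other by 1.03-fold. Ranked by count, Reg3b was the most abundant of all genes in X23SI4, which helped to choose the members, second in X17SI4 and number 9 in X10SI4, and it ranked from 30 to 91 in the remaining 4. In these samples of whole scrapings, more cells that make a transcript and more transcript per cell cannot be told apart.

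Reg3g, which kills Gram-positive bacteria, showed the same order of magnitude and the same libraries at the top. Its level was 10653 CPM in X17SI4, 1444 CPM in X32SI4, 818 CPM in SI9 and 876 CPM in X1SI4 on normal cys, and 9760 CPM in X23SI4, 1391 CPM in X26SI4 and 2320 CPM in X10SI4 on low cys. X17SI4 was 7.38-fold above the next normal cys library and X23SI4 4.21-fold above the next low cys library. The highest and the lowest of the 7 libraries differed by 13.0-fold for Reg3g and by 13.8-fold for Reg3b.

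Reg3a, which lies between them in the cluster, varied much less. It was found at 121 CPM in X17SI4, 72.4 CPM in X32SI4, 70.7 CPM in SI9 and 87.0 CPM in X1SI4 on normal cys, and at 110 CPM in X23SI4, 62.0 CPM in X26SI4 and 93.3 CPM in X10SI4 on low cys. The same 2 libraries were again the highest of their diets, by 1.395-fold and 1.18-fold, and the range over all 7 libraries was 1.96-fold.

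Reg4, the member from chromosome 3, did not follow Reg3b over all libraries. It was found at 10.6 CPM in X17SI4, 24.8 CPM in X32SI4, 17.3 CPM in SI9 and 11.3 CPM in X1SI4 on normal cys, and at 23.4 CPM in X23SI4, 12.0 CPM in X26SI4 and 26.2 CPM in X10SI4 on low cys. X17SI4, the library with the highest normal cys level of Reg3b, held the lowest level of Reg4. Reg1 was expressed at a low level, with 17, 20, 23 and 28 counts in X17SI4, X32SI4, SI9 and X1SI4 (0.888, 0.908, 1.21 and 1.34 CPM) and 48, 14 and 23 counts in X23SI4, X26SI4 and X10SI4 (1.96, 0.875 and 1.48 CPM). X17SI4 was the lowest normal cys library and X23SI4 the highest low cys library.

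Retnlb was close to the detection limit. It had 2 counts in X17SI4, 20 in X32SI4, 2 in SI9 and 0 in X1SI4 on normal cys, and 6 in X23SI4, 0 in X26SI4 and 0 in X10SI4 on low cys. A count of 0 allows a level of up to 0.134 CPM in X1SI4, 0.191 CPM in X26SI4 and 0.201 CPM in X10SI4. These limits are 3 counts scaled to total counts without TMM factors, counting error only. X32SI4 held most of the 30 counts in all. Retnlb was the member that did not pass the filter on low counts. Of the other Reg genes of the cluster, Reg2 had 1 count in X32SI4, 1 in X23SI4 and 0 elsewhere, and Reg3d had 3 to 16 counts per library.

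**Figure D1:**
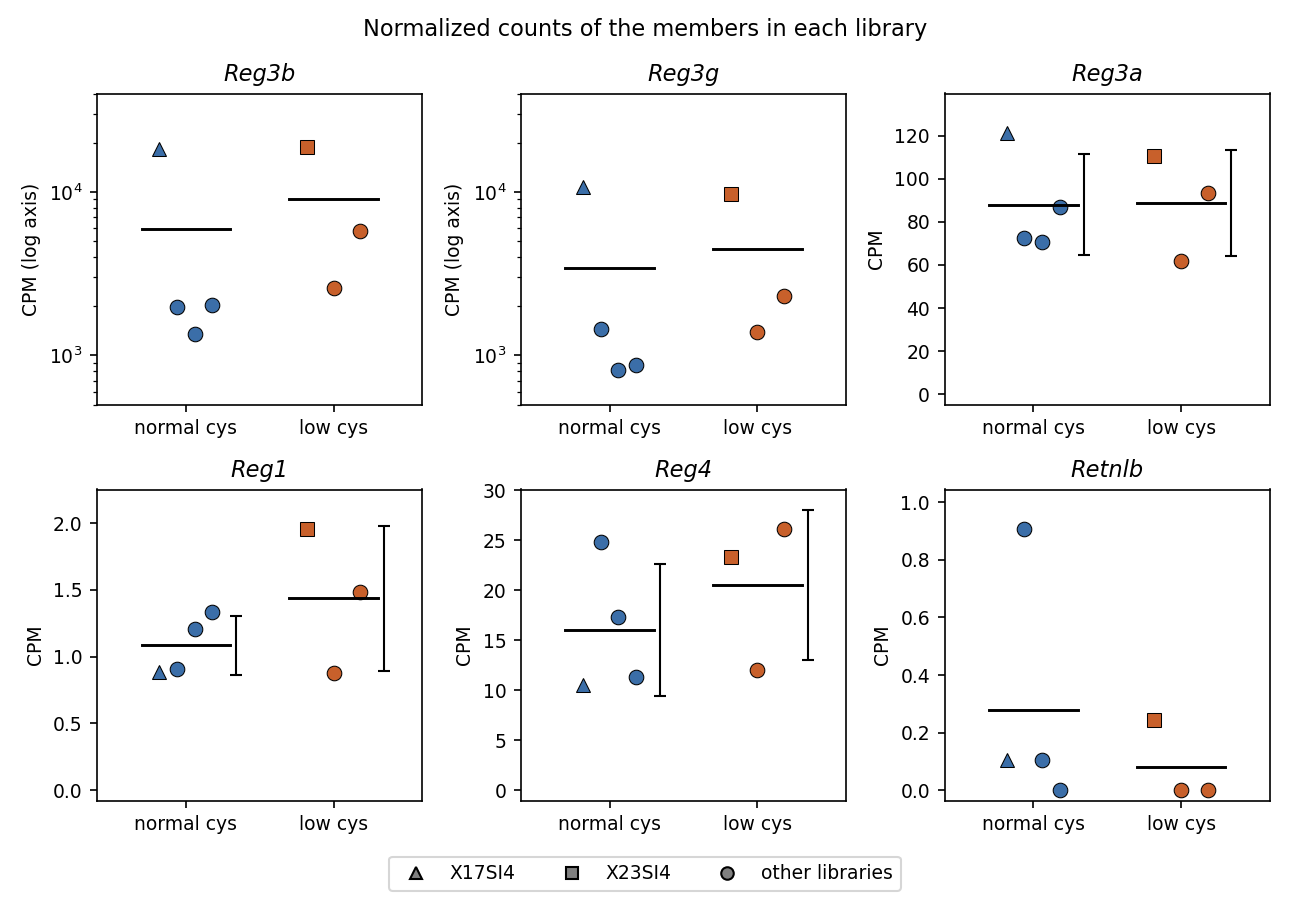
Normalized counts (CPM) of the 6 members in each library by diet, on a log axis for Reg3b and Reg3g and a linear axis for the others. Points are libraries (triangle X17SI4, square X23SI4, circles the others), lines are means and bars beside them are SDs for Reg3a, Reg1 and Reg4 (n = 4 and n = 3), and the triangle and the square lie at 18286 and 18755 CPM for Reg3b, with the other 5 libraries at 1360 to 5793 CPM.

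The 6 members together took up 2.82% of all counts in X17SI4, 0.363% in X32SI4, 0.204% in SI9 and 0.282% in X1SI4 on normal cys. On low cys they took up 3.20% in X23SI4, 0.411% in X26SI4 and 0.858% in X10SI4. The mean share was 0.918% ± 1.27 (SD, n = 4) on normal cys and 1.49% ± 1.497 (SD, n = 3) on low cys, and in both diets the SD exceeded the mean because of 1 library. Reg3b alone held 0.122% to 2.09% of a library and Reg3g 0.0736% to 1.09%.

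**Figure D2:**
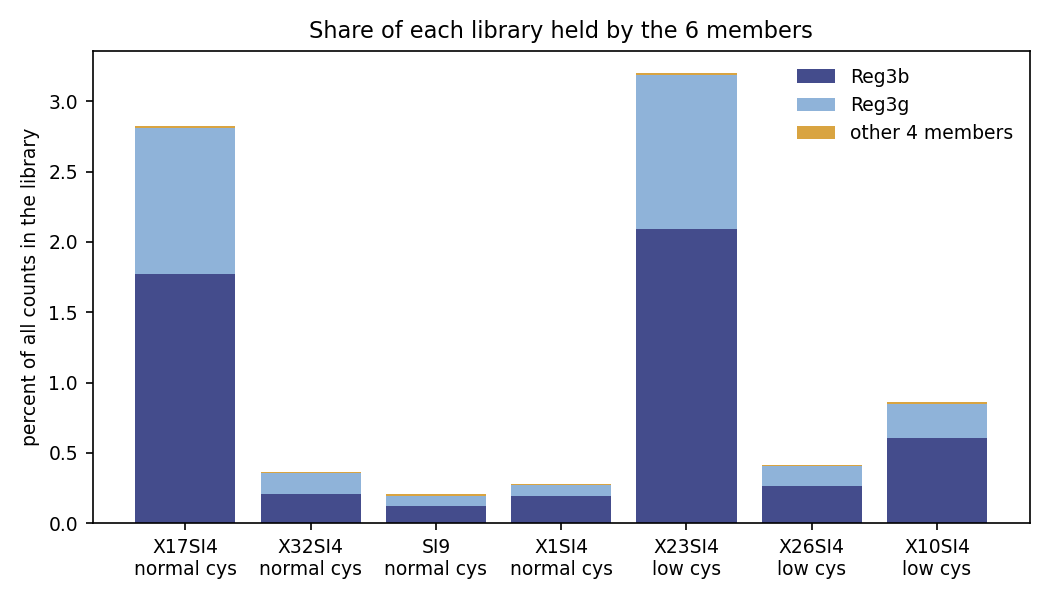
Percentage of all counts of each library held by Reg3b, Reg3g and the other 4 members, stacked. X17SI4 (2.82%) and X23SI4 (3.20%) stand above the other 5 libraries (0.204% to 0.858%), and Reg3b and Reg3g make up nearly all of each bar.

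For a comparison between genes, counts were also expressed per length of the coding transcript (TPM, transcripts per 1000000 transcripts). This length was used for the members only, and the total over all genes used the deposited exon lengths. The mean TPM of Reg3b was 13880 ± 19250 (SD, n = 4) on normal cys and 22760 ± 22250 (SD, n = 3) on low cys. That of Reg3g was 8212 ± 11400 on normal cys and 11510 ± 12090 on low cys. The spreads of the 2 genes between mice overlapped, but both were measured in the same libraries. Within each of the 7 libraries Reg3b was above Reg3g. Reg3a followed at 196 ± 55.0 and 209 ± 61.7 TPM, Reg4 at 28.9 ± 12.9 and 38.9 ± 14.01 TPM, Reg1 at 2.58 ± 0.541 and 3.64 ± 1.46 TPM and Retnlb at 0.767 ± 1.19 and 0.235 ± 0.408 TPM. Retnlb was above Reg1 in X32SI4 (2.54 and 2.30 TPM) and below it in the other 6 libraries. The length matters for Reg3g, since the exon length of 2114 bases in the deposited annotation includes an exon of a second transcript and would give 2995 ± 4159 TPM on normal cys.

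The spread between mice of the same diet set Reg3b and Reg3g apart from most genes. The SD of their log2 CPM within diet was 1.61 for Reg3b and 1.63 for Reg3g, against a median of 0.29 over the 14869 genes tested, ranks 60 and 54 from the top. Among the 108 genes with a mean log2 CPM of at least 10, a limit chosen after the values were seen, Reg3g had the largest and Reg3b the next largest SD, against a median of 0.28. Reg3a (0.39), Reg1 (0.40) and Reg4 (0.58) were at the percentiles 66.6, 68.6 and 83.9 of all genes. Since the members were chosen in part for the level of Reg3b, this spread is given as a description.

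**Figure D3:**
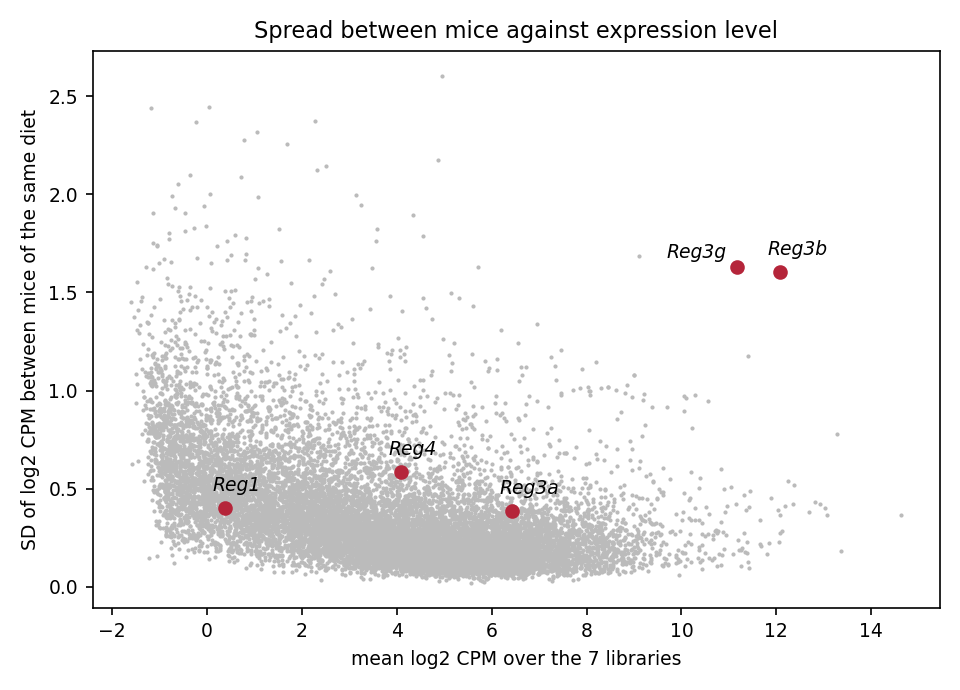
SD of log2 CPM between mice of the same diet (vertical) against mean log2 CPM over the 7 libraries (horizontal), 1 grey point per gene tested and red points for the 5 tested members. Reg3b (SD 1.61) and Reg3g (SD 1.63) lie above the other genes of similar level, while Reg1, Reg3a and Reg4 lie within the cloud.

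The levels of Reg3b and Reg3g moved together between mice. For each Reg3b count there were 0.583 Reg3g counts in X17SI4, 0.726 in X32SI4, 0.601 in SI9 and 0.429 in X1SI4 on normal cys, and 0.520 in X23SI4, 0.541 in X26SI4 and 0.401 in X10SI4 on low cys. Whereas each gene varied more than 10-fold, this ratio stayed within 0.401 to 0.726. The log2 ratio was -0.80 ± 0.31 (SD, n = 4) on normal cys and -1.05 ± 0.24 (SD, n = 3) on low cys, a difference within the spread between mice (-0.25, two-sided exact permutation test, p = 0.286). In contrast, Reg3b per Reg3a count was 151 in X17SI4 and 170 in X23SI4, and 19.2 to 62.1 in the other 5 libraries. Reads of 50 bases could be assigned between these genes, since no stretch of 50 bases of the transcripts of Reg3a, Reg3b, Reg3g, Reg4, Retnlb or Reg3d occurred in a transcript of another gene, and 3.65% of those of Reg1 did. The mRNAs of Reg3b and Reg3g were identical at 69.5% of bases and those of Reg3b and Reg3a at 68.8%.

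Across the 7 libraries, the Pearson correlation of log2 CPM with Reg3b was 0.98 for Reg3g, 0.88 for Reg3a, 0.32 for Reg1 and 0.03 for Reg4 (Spearman 0.86, 0.75, 0.29 and -0.07). Leaving out X17SI4 and X23SI4 lowered the value of Reg3a most and that of Reg3g less, and raised those of Reg1 and Reg4. Over the other 5 libraries the Pearson correlation was 0.90 for Reg3g, 0.55 for Reg3a, 0.39 for Reg1 and 0.40 for Reg4. Among 12073 genes with a mean log2 CPM of at least 1, those most like Reg3b were Clint1 (0.99), a clathrin adaptor, O3far1 (Ffar4, 0.99), a receptor for long-chain fatty acids, Nfu1 (0.99), an iron-sulfur cluster protein, Reg3g (0.98), 5730559C18Rik (Inava, 0.98), Iars (0.98), a tRNA synthetase, Cct2 (0.98), a chaperonin subunit, Mrpl1 (0.97), Golm1 (0.97) and Rasal2 (0.97). Apart from Reg3g their ranges were small, with highest and lowest libraries 1.28-fold to 3.18-fold apart, and 185 genes (1.53%) had a correlation above 0.9. The median over all genes was -0.06. For Retnlb, with its few counts, the most alike were Pcnxl3 (0.97), Commd9 (0.96), Rhbdd2 (0.96), Nisch (0.95) and Frat2 (0.94), in libraries of which X32SI4 held most of the Retnlb counts.

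The comparison of the diets asked whether the members changed when dietary cystine was restricted. None of the 5 tested members differed between the diets beyond the spread between mice. In edgeR, 0 of the 5 had an adjusted p-value under 0.05, as had 0% of all genes tested, and 0 of 5 had an unadjusted p-value under 0.05, against 5.49% of all genes. With DESeq2, 0 of the 5 passed an adjusted p-value of 0.05, against 0.108% of all genes. The levels of the 2 diets overlapped in each of the 6 members, whereas in 6.83% of all genes tested they did not.

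Mean Reg3b was 5919 ± 8250 CPM (SD, n = 4) on normal cys and 9040 ± 8566 CPM (SD, n = 3) on low cys. The log2 fold change was 0.61 (SE 1.01, 95% interval -1.71 to 2.93, edgeR adjusted p = 0.876), and the two-sided exact permutation test over the 35 splits gave p = 0.371, where the smallest possible value is 0.0286. Mean Reg3g was 3448 ± 4812 CPM on normal cys and 4490 ± 4587 CPM on low cys, a log2 fold change of 0.38 (SE 1.03, 95% interval -1.98 to 2.74, edgeR adjusted p = 0.928, exact permutation p = 0.543). For both genes the interval spans a fall and a rise of more than 3-fold, so the data set no narrower limit on the change.

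Reg3a, Reg4 and Reg1 had smaller standard errors than Reg3b and Reg3g. Reg3a was 87.9 ± 23.5 CPM on normal cys and 88.6 ± 24.6 CPM on low cys, a log2 fold change of 0.01 (SE 0.24, 95% interval -0.54 to 0.56, edgeR adjusted p = 0.994, exact permutation p = 1), and its sign depended on the library left out. Reg4 was 16.0 ± 6.603 and 20.5 ± 7.51 CPM, a log2 fold change of 0.36 (SE 0.35, 95% interval -0.44 to 1.154, edgeR adjusted p = 0.820, exact permutation p = 0.400). Reg1 was 1.09 ± 0.223 and 1.44 ± 0.543 CPM, a log2 fold change of 0.42 (SE 0.37, 95% interval -0.42 to 1.25, edgeR adjusted p = 0.807, exact permutation p = 0.371). Retnlb, at 0.280 ± 0.422 and 0.0816 ± 0.141 CPM, did not pass the filter and was compared by the exact permutation test alone (p = 0.457). Reg3d, the neighbour of Reg3b, had a log2 fold change of -0.26 (SE 0.50, edgeR adjusted p = 0.895).

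How much X17SI4 and X23SI4 decided these values was examined by leaving them out. Without X17SI4 the log2 fold change of Reg3b was 2.33 (SE 0.64, edgeR adjusted p = 0.375), and without X23SI4 it was -0.49 (SE 1.09), the opposite direction. For Reg3g the values were 2.10 without X17SI4 and -0.88 without X23SI4. With both left out, Reg3b was at 1360 to 2040 CPM in the 3 remaining normal cys libraries and at 2573 and 5793 CPM in the 2 low cys libraries, so these groups did not overlap, and its log2 fold change was 1.24 (SE 0.36, 95% interval 0.39 to 2.08, edgeR adjusted p = 0.972). For Reg3g, with overlapping groups, it was 0.84 (SE 0.32, 95% interval 0.08 to 1.61, edgeR adjusted p = 0.972), and Reg3a (0.03), Reg1 (0.05) and Reg4 (0.11) were close to 0. Unadjusted p-values were under 0.05 for 2 of the 5 members, Reg3b and Reg3g, against 4.50% of all genes, but the 2 libraries were picked for their level of these genes after the data had been seen, so that this is a description.

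**Figure D4:**
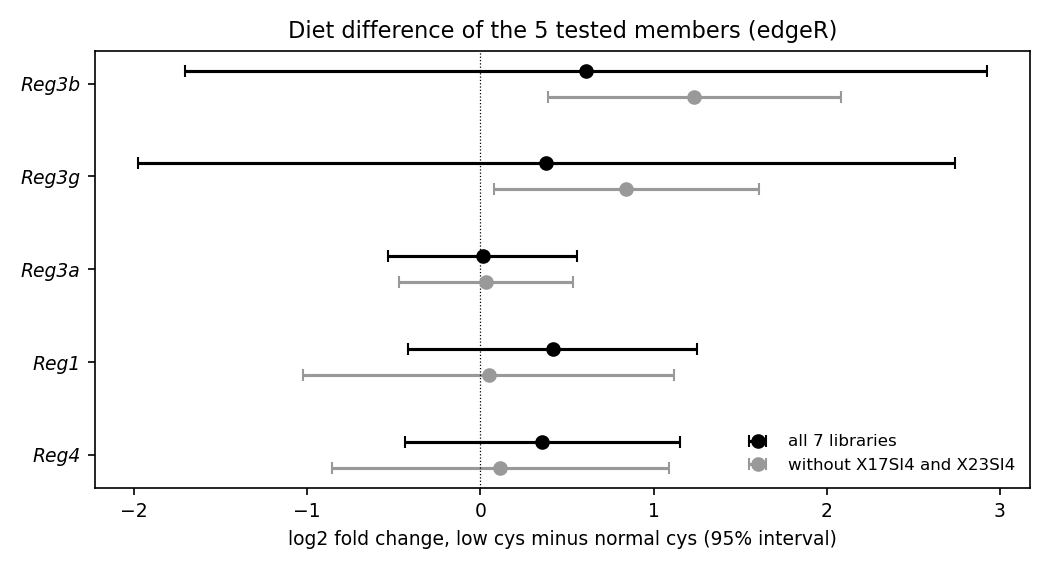
Log2 fold change of the 5 tested members, low cys minus normal cys, from edgeR with its 95% interval, for all 7 libraries (black) and without X17SI4 and X23SI4 (grey). With all libraries the 5 intervals include 0, and those of Reg3b (-1.71 to 2.93) and Reg3g (-1.98 to 2.74) are the widest.

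Genes of the pathway known to control Reg3b and Reg3g were examined next. Of 19 genes of IL-22 and STAT3 signalling, 13 were tested and 0 had an unadjusted edgeR p-value under 0.05 in either direction (all genes 2.66% higher and 2.83% lower on low cys), with a median log2 fold change of -0.16 against 0.01 for all genes. Stat3, which carries the IL-22 signal, was found at 134 to 234 CPM, and Il17rc, a subunit of the IL-17 receptor, at 209 to 287 CPM. Transcripts of the cytokines themselves were scarce, as Il22 had 0 counts in all 7 libraries and Il17a had 1 count in total. For Il22 this allows up to 0.134 to 0.201 CPM (3 counts per library, scaled without TMM factors). None of the 11 pathway genes above the level limit had a correlation with Reg3b above 0.9. Of 16 genes that sense microbes, all were tested and 0 passed, with a median of 0.01. They included Nlrp6, an inflammasome receptor, at 249 to 321 CPM, and Ticam1, an adaptor of Toll-like receptors, at 61.3 to 85.7 CPM. For Retnlb, 5 of 12 genes of type 2 cytokine signalling and the resistin-like family were tested and 0 passed (median -0.25). Il13 had 0 counts in all 7 libraries, while its receptor subunit Il13ra1 (120 to 215 CPM) and Stat6 (120 to 153 CPM) were expressed.

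Of 21 epithelial genes known to respond to IL-22, 15 were tested, 0 were higher and 1, Sprr2a1, was lower on low cys at an unadjusted p-value under 0.05 (log2 fold change -0.46, SE 0.20, edgeR adjusted p = 0.794). The median of the list was -0.05, and of all genes 2.66% were higher and 2.83% lower at this limit. Of the 12 that reached the level limit, 5 had a correlation with Reg3b above 0.9 (Saa1, Fut2, Tgm2, Tifa and Dmbt1, named after their values were seen), as had 1.53% of all genes compared, and the median was 0.56. The correlations of the other 7 were lower, at 0.62 for Nos2, 0.49 for Duox2, 0.37 for Pigr, 0.32 for Duoxa2, 0.15 for Bcl3, -0.01 for Ubd and -0.34 for Sprr2a1. Saa1, a serum amyloid A protein, was found at 310 CPM in X17SI4 and 352 CPM in X23SI4, and at 4.20 to 28.9 CPM in the other 5 libraries. Dmbt1, a mucosal protein that binds bacteria, was found at 2575 CPM in X17SI4 and 1951 CPM in X23SI4, and at 141 to 555 CPM in the others. Fut2, which fucosylates the epithelial surface, was found at 19.7 CPM and 12.1 CPM in these libraries and at 2.05 to 4.32 CPM in the others. Tifa, an adaptor in the sensing of bacterial sugars, was found at 199 CPM in X17SI4, 93.7 CPM in X23SI4 and 93.4 CPM in X10SI4, and at 29.6 to 42.1 CPM in the other 4. Tgm2, a transglutaminase, was found at 280 CPM in X17SI4, 165 CPM in X23SI4 and 58.5 to 112 CPM in the others. None of these 5 passed the test between the diets (edgeR adjusted p 0.911 to 0.998). Other genes of the list were high in X17SI4 but not in X23SI4. Nos2, the inducible nitric oxide synthase, was found at 490 CPM in X17SI4 and 177 CPM in X23SI4, and at 125 to 194 CPM in the others. Duox2, an oxidase that makes hydrogen peroxide, was found at 481 CPM and 196 CPM in these libraries and at 43.4 to 210 CPM in the others, and Ubd, a ubiquitin-like protein, at 132 CPM and 6.98 CPM and at 3.44 to 94.4 CPM in the others. Pigr, which carries antibodies into the lumen, was highest in X26SI4 (3840 CPM) and was found at 1551 to 3510 CPM in the others. Sprr2a1 was lowest in X23SI4 (2683 CPM) and was found at 2904 to 4760 CPM in the others.

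**Figure D5:**
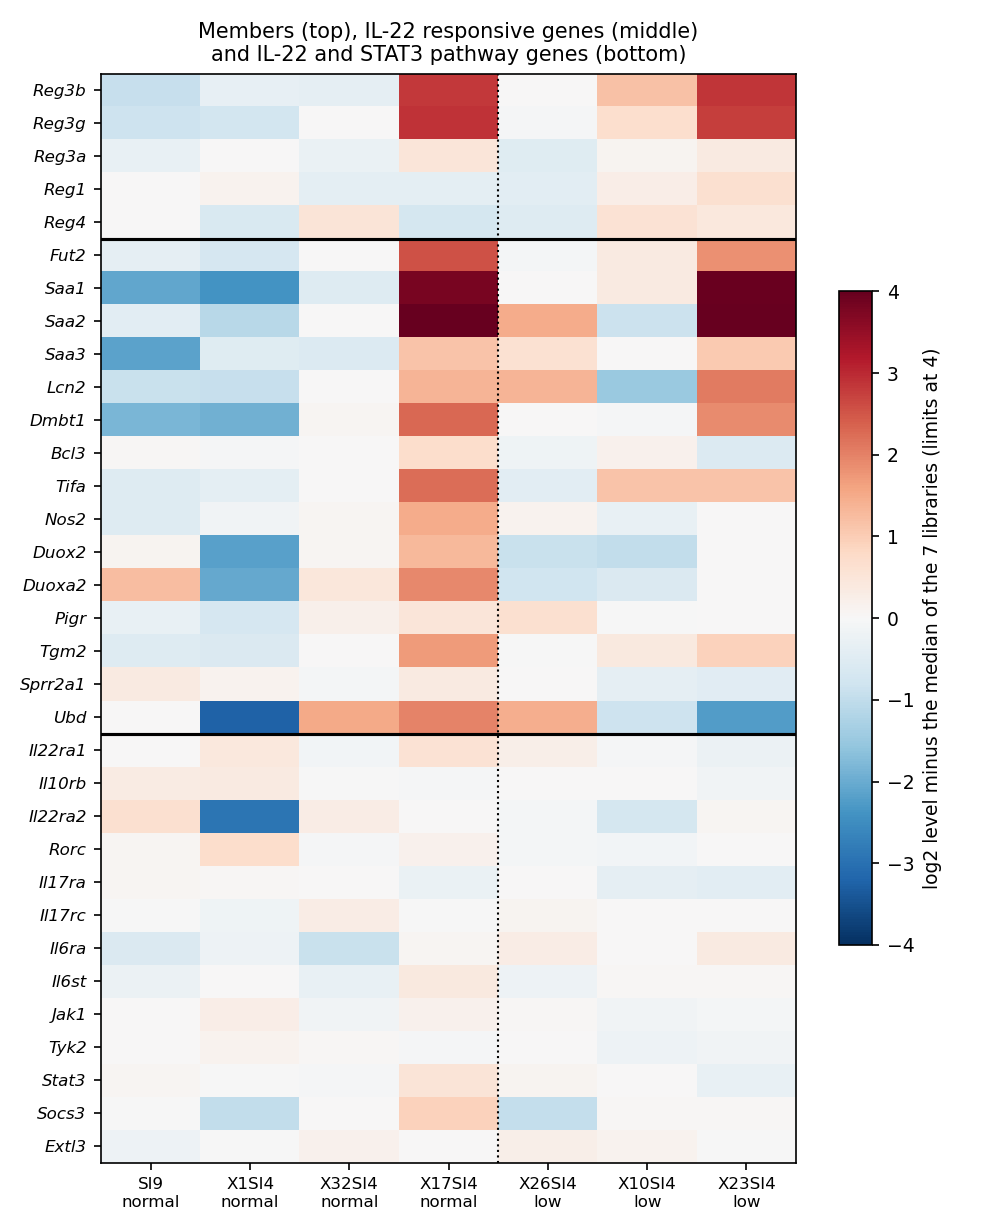
Level of the tested members (top), IL-22 responsive genes (middle) and IL-22 and STAT3 pathway genes (bottom) in each library, as log2 level minus the median of the 7 libraries, colours limited at 4. X17SI4 and X23SI4 are red for Reg3b and Reg3g and for Saa1, Dmbt1 and Fut2. In contrast, X23SI4 and X1SI4 are blue for Ubd, and most pathway genes are pale in each library.

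Of 19 other antimicrobial genes of the epithelium, 16 were tested, and the median log2 fold change was 0.26. At an unadjusted p-value under 0.05, 1 was higher and 2 were lower on low cys, against 2.66% and 2.83% of all genes. Slpi, a protease inhibitor, was higher by 1.09 (SE 0.45) at 0.473 to 3.61 CPM, and Sprr2a3 (-0.50, SE 0.17) and Sprr2a2 (-0.45, SE 0.20) were lower, each with an edgeR adjusted p of 0.794. Sprr2a1, Sprr2a2 and Sprr2a3 are close copies, so the split of counts between them is uncertain. Zg16, a lectin of the mucus, was at 2655 to 5555 CPM. None of the 12 genes above the level limit had a correlation with Reg3b above 0.9, and the median was 0.62.

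Markers of the cells that make Reg proteins also varied between the libraries. The summed level of the 8 Paneth cell markers was 4814 CPM in X17SI4, 2428 CPM in X32SI4, 2354 CPM in SI9 and 711 CPM in X1SI4, and 4940 CPM in X23SI4, 2854 CPM in X26SI4 and 5180 CPM in X10SI4. The log2 fold change was positive for all 8 (median 0.75), against 51.16% of all genes, and 0 passed an unadjusted p-value of 0.05. The most abundant, Lyz1 and Defa24, had log2 fold changes of 0.81 (SE 0.52) and 0.72 (SE 0.51). X10SI4 had the highest Paneth cell marker level and the third highest Reg3b level. None of the 8 Paneth cell markers had a correlation with Reg3b above 0.9, but the median was 0.68, against -0.06 over all genes. The 8 enterocyte markers summed to 27440, 29550, 49240 and 47350 CPM in X17SI4, X32SI4, SI9 and X1SI4 and to 13560, 26060 and 30410 CPM in X23SI4, X26SI4 and X10SI4, and had a negative log2 fold change in all 8 (median -0.59). Among them Apoa1 (-0.79, SE 0.29) and Krt20 (-0.41, SE 0.18) had an unadjusted p-value under 0.05 (edgeR adjusted p = 0.794 for both). Of all genes, 2.83% were lower at this limit. X23SI4 had the lowest enterocyte sum, and the median correlation of the 8 enterocyte markers with Reg3b was -0.705. This was not particular to enterocytes, as the median was also -0.705 for the distal ileum markers and -0.783 for the tuft cell markers. The part of any of these marker lists in the Reg3b and Reg3g levels was not tested.

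The other marker lists gave 0 genes with an unadjusted edgeR p-value under 0.05 for the distal ileum (0 of 6, median -0.15), the proximal small intestine (0 of 5, median -0.62), goblet cells (0 of 9, median 0.01), enteroendocrine cells (0 of 5, median -0.16), innate lymphoid and T cells (0 of 8, median -0.18) and myeloid cells (0 of 6, median 0.40), and for the single tested marker of colon (Car4, -0.09) and of acinar cells (Clps, 0.53). Among tuft cell markers, Avil was lower (-0.52). In B and plasma cells Jchain, the joining chain of secreted antibodies, was higher (1.25), 1 of 7 (median 0.23). Of 6 tested smooth muscle markers 2 (Actg2 and Des) and of 6 stroma markers 3 (Dcn, Col3a1 and Col6a1) were higher, with medians of 1.56 and 1.20. The summed levels were low (2.39 to 38.8 CPM and 4.73 to 21.9 CPM). The smooth muscle sum was 38.8 CPM in X26SI4, 14.5 CPM in X10SI4 and 5.75 CPM in X23SI4 on low cys, against 2.39 to 12.1 CPM on normal cys. Over all genes tested, 2.66% were higher and 2.83% lower at an unadjusted p-value under 0.05. None of the genes of these lists had an adjusted p-value under 0.05. The summed innate lymphoid and T cell markers, cells that can make IL-22, were at 113 to 169 CPM over the 7 libraries, with 146 CPM in X17SI4 and 113 CPM in X23SI4.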

How the data were processed

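Each of the 7 libraries came from the ileal scraping of 1 mouse. Values deposited by the authors are raw counts for each gene, not normalized. They trimmed the paired-end reads of 50 bases with Trim Galore (version 0.6.5), removed rRNA reads, aligned to GRCm38 with STAR and counted with featureCounts on Ensembl release 70. The strand setting and the treatment of reads with several matches are not given in the sources used here. A sequencing batch is not given in them either.

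Genes were kept by filterByExpr (minimum count 10, minimum total 15), which left 14869 of 38293, scaled with TMM factors and compared between the diets by edgeR's quasi-likelihood test, robust setting, without covariates (version 4.0.16, R 4.3.3). P-values were adjusted by Benjamini-Hochberg over all genes tested. Log2 CPM used a prior count of 2. The exact permutation tests of single values were two-sided and enumerated all 35 arrangements of 4 and 3 libraries. The method was checked on simulated data. The alternatives were DESeq2 1.42.0, limma-voom (limma 3.58.1), other scalings, other filters and leaving out each library, and leaving out X17SI4 and X23SI4 together was added after the data had been seen.

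The members, gene lists and tests were chosen with earlier results of these data known. Besides the members, Reg2 and Reg3d, the genes named are, per list, up to 3 with the smallest unadjusted p-value under 0.05 and the 2 with the highest mean, plus the 10 most correlated with Reg3b and the 5 most correlated with Retnlb. Abundant genes of cell type lists without bearing on the members are not described. The count over the tuft cell list is not reported here. Identity was computed by global alignment (Biopython 1.88) of mRNAs, since protein sequences were not used here. Promoter sequences came from RefSeq and were found for 5 of the 6 members.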

Additional observations from a re-analysis of the deposited data

Results flagged for a closer look

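In 3 of 9 values examined, 1 of the 4 normal cys libraries was past the 95% limit of Dixon's criterion for a single distant sample. Chance flags about 1 in 20 groups, but these values are not independent and the members were chosen in part for the level of Reg3b, so nothing is read from the number of flags. The log2 CPM of Reg3b was 14.16 in X17SI4, with a gap to the next library of 0.844 of the range of the group. The share of all counts held by the 6 members was 2.82% in X17SI4, with a gap of 0.939 of the range, and this share consists mostly of Reg3b and Reg3g. The log2 CPM of Reg2 was -2.76 in X32SI4, which had 1 count where the other 3 libraries had 0, so that the gap is the whole range by construction. The low cys group of 3 was not examined in this way.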

How the results depend on the processing

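No paired analysis was possible because the labels give no replicate numbers shared by the diets. The direction of Reg1, Reg3b, Reg3g and Reg4 was the same under each scaling, filter and test, but with limma-voom the log2 fold change was 1.00 for Reg3b and 0.75 for Reg3g, against 0.61 and 0.38 with edgeR. Reg3a, close to 0, had the opposite sign with no filter on low counts (log2 fold change -0.004). Over the fits that each left out 1 library, the log2 fold change ranged from -0.49 (without X23SI4) to 2.33 (without X17SI4) for Reg3b, from -0.88 to 2.10 for Reg3g (without the same libraries), from -0.17 to 0.21 for Reg3a (negative without X32SI4, SI9, X23SI4 or X10SI4), from 0.13 to 0.67 for Reg1 and from 0.15 to 0.67 for Reg4. Members with an unadjusted p-value under 0.05 ranged from 0 to 2, with 2 (Reg3b and Reg3g) without X17SI4 and 2 without X17SI4 and X23SI4 together. Of all 14869 genes, 1775 were under this limit without X17SI4, the most of any fit that left out 1 library. Without both libraries 669 (4.50%) were. Genes with an adjusted p-value under 0.05 numbered 16 with DESeq2 against 0 with edgeR (817 at an unadjusted p-value) and limma-voom, and ranged from 0 to 1 when libraries were left out (1 without X32SI4). Genes with an unadjusted p-value under 0.05 ranged from 244 (without X23SI4) to 1775 (without X17SI4), with 412 without SI9 and 506 without X10SI4. The cause of these differences was not tested. Without TMM the median log2 fold change of all genes moved from 0.01 to 0.15, and 911 genes were higher and 126 lower at an unadjusted p-value under 0.05, against 396 and 421. Retnlb could be fitted only with no filter (log2 fold change -1.52, SE 1.37, a value that depends on the prior count at levels this close to 0), so no alternative is given for it. Its counts of 0 to 20 per library limit what can be seen.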
